A study of Danio rerio with 10 samples.

Results

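The genes described here are 10 complement components that the liver makes and secretes, out of 32105 genes counted in pooled zebrafish livers. They are c3a.1, c3a.2, c4b, cfb, c5, c6, c7b, c8a, c8b and c9. They were picked by gene name, with no measured value in the rule, but with earlier results of these data known. Each matched 1 Ensembl identifier, from ENSDARG00000012694 for c3a.1 to ENSDARG00000055278 for cfb. The name c6 led, through a RefSeq synonym, to the gene now called c6.2 (ENSDARG00000057113), and the other 9 names matched directly.

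Complement is a set of plasma proteins that recognise and destroy microbes. Several routes of activation lead to cleavage of C3 by enzyme complexes called convertases, of which C4 builds one kind and factor B the other. Cleaved C3 coats the target, cleavage of C5 starts the terminal pathway, and C5b then joins C6, C7, C8 and many copies of C9 into the membrane attack complex, a pore. In mammals hepatocytes are the main source of most of these proteins, which pass through the endoplasmic reticulum (ER) on their way out of the cell, and several are acute phase proteins whose transcription rises with inflammation.

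The livers came from larvae of the nAtf6 TG line, Tg(fabp10:nAtf6-cherry; cmlc2:GFP), allele C, in which the fabp10 promoter makes hepatocytes produce the part of Atf6, a transcription factor of the ER stress response, that acts in the nucleus. Carriers were sorted by their green hearts, since the transgene also holds GFP under a heart promoter. At 5 dpf there were 3 libraries of nAtf6 TG livers and 3 of siblings with no GFP in the heart, each from a pool of 25 livers, and the 3 clutches were dissected on different days after an outcross to the wild-type strain TAB 14. Ribosomal RNA was removed from these libraries by Ribo-Zero Gold, although their molecule entry names polyA RNA and the description of the series gives a cross to the liver marker line Tg(fabp10a:CAAX-EGFP) at both ages. At 78 hpf there were 4 libraries of 20 livers each, from 2 clutches of that cross to the liver marker line, all larvae carried the marker, and polyA RNA was selected. Age and library preparation therefore cannot be told apart, and because the samples are bulk tissue, fewer cells of a type and less RNA per cell cannot be told apart either.

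At 78 hpf the labels contradict each other. The 2 libraries deposited under the name Natf6 are titled as siblings, and the 2 deposited under the name SIBS are titled as transgenic, while the treatment text gives the sample name Natf6 to larvae with green hearts. Both readings give the same pairs of libraries and opposite signs. The deposited names set the direction below, and the titles would turn every 78 hpf sign round.

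Counts on genes ran from 17622825 to 22963880 per library at 5 dpf and from 4868321 to 6354867 at 78 hpf. Values below are CPM, edgeR's counts scaled to a common library size, with TMM factors fitted within each age, and a gene was called when edgeR's quasi-likelihood test gave an adjusted p under 0.05 over all genes tested. The transcript of atf6, which includes reads of the transgene, had 439, 539 and 542 CPM in the nAtf6 TG libraries at 5 dpf, against 90.4, 96.8 and 77.9 CPM in siblings. At 78 hpf it had 184 and 337 CPM in the libraries deposited as Natf6, against 85.3 and 45.6 CPM in those deposited as SIBS. hspa5, a chaperone gene that ATF6 activates in mammals, had 11078 and 15066 CPM deposited as Natf6, against 2183 and 1210 CPM deposited as SIBS. atf6, hspa5, hsp90b1, pdia4, sdf2l1 and dnajb11 were all higher in both libraries deposited as Natf6 with no overlap. The nAtf6 TG libraries lay on the same side at 5 dpf, so in direction these genes follow the deposited names and not the titles. Their log2 fold changes at 78 hpf ran from 1.74 for dnajb11 to 3.43 for pdia4. None of the 6 was called at that age, with adjusted p from 0.221 to 0.689 by edgeR. The share of all genes with pairs that did not overlap at 78 hpf was not counted. The hepatocyte markers fabp10a and tfa were abundant in all 10 libraries, with fabp10a between 1260.4 and 12479 CPM. Not every marker of that list was. hpx had 2.24, 0.438 and 0.727 CPM in nAtf6 TG livers at 5 dpf, against 31.3, 83.8 and 38.7 CPM in siblings. At 78 hpf hpx lay between 0.580 and 12.3 CPM and ahsg1 between 3.50 and 10.1 CPM. At 5 dpf sibling library 2 stood apart from siblings 1 and 3 (TMM factor 0.758 against 1.11 in each of them). nAtf6 TG libraries 2 and 3 were much closer to each other than any other pair of libraries within a group.

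In nAtf6 TG livers at 5 dpf the late terminal components c8a, c8b and c9 were called lower, by about the same factor. The central components c3a.1, c3a.2, c4b and cfb and the earlier terminal components c5, c6 and c7b did not pass the test. The log2 fold change of c7b was -0.91 (SE 0.90), as large as that of c8b, -0.90 (SE 0.22). Whether the components differ from each other in their change was not tested. All 10 components were tested. None was called higher and 3 were called lower, against 13.7% of all 18470 genes tested called higher, 7.48% called lower and 21.2% called in either direction. The median log2 fold change of the 10 was -0.33, and that of all genes tested was -0.04.

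The components that act first are described first. C3 is the protein on which all routes converge, and zebrafish carry several copies of its gene. The most counted copy, c3a.1, had 3761, 4434 and 4298 CPM in nAtf6 TG livers, against 5873, 3752 and 6004 CPM in siblings. The nAtf6 TG values lay close together, siblings 1 and 3 were above all of them, and sibling 2 was below. The log2 fold change was -0.32 (SE 0.26) with an adjusted p of 0.399 in edgeR's test.

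Another copy, c3a.2, followed another pattern, with 389, 856 and 819 CPM in nAtf6 TG livers, against 427, 898 and 457 CPM in siblings. Here nAtf6 TG library 1 was low with siblings 1 and 3, and sibling 2 was high with nAtf6 TG libraries 2 and 3, so that the groups overlapped fully. The log2 fold change was 0.21 (SE 0.40, adjusted p 0.731 by edgeR).

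C4 carries the classical and lectin routes to the C3 convertase. Its gene c4b had 266, 314 and 299 CPM in nAtf6 TG livers, against 411, 264 and 436 CPM in siblings. As for c3a.1, only sibling 2 kept the groups from separating, and the log2 fold change was -0.34 (SE 0.23, adjusted p 0.326 by edgeR).

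Factor B, encoded by cfb, is the protease of the alternative route. It had 943, 1352 and 1302 CPM in nAtf6 TG livers, against 1193, 1148 and 1309 CPM in siblings. The means differed by less than the spread within either group, 1199 ± 223 CPM in nAtf6 TG livers and 1217 ± 82.8 CPM in siblings (SD, n = 3 each), with a log2 fold change of -0.02 (SE 0.22, adjusted p 0.954 by edgeR).

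The terminal pathway begins with C5, whose cleavage also releases the inflammatory peptide C5a. Its gene c5 had 676, 707 and 691 CPM in nAtf6 TG livers, against 829, 969 and 792 CPM in siblings. Every nAtf6 TG library was below every sibling library, yet the log2 fold change of -0.32 (SE 0.18) did not pass the test (adjusted p 0.238 by edgeR). Groups that do not overlap were common at 5 dpf: 39.8% of all genes tested had them, and 4 of the 10 components did.

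C6 and C7 attach to C5b in turn, and C7 gives the complex its first hold on the membrane. The gene c6, at low level, had 11.2, 24.0 and 25.3 CPM in nAtf6 TG livers, against 19.6, 4.50 and 19.8 CPM in siblings. Its neighbour c7b had 33.0, 50.6 and 55.0 CPM in nAtf6 TG livers, against 122, 5.15 and 134 CPM in siblings. Sibling 2 was the lowest of all 6 libraries for both genes, 24.9 times below the mean of siblings 1 and 3 for c7b and 4.38 times below it for c6.

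These differences among siblings left both genes with wide errors. The log2 fold change of c6 was 0.46 (SE 0.54, adjusted p 0.572 by edgeR) and that of c7b was -0.91 (SE 0.90, adjusted p 0.492 by edgeR). The 2 genes stand next to each other in the RefSeq gene order of the assembly GRCz12tu.

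C8 is built from an alpha, a beta and a gamma chain, each from its own gene, and inserts the growing complex into the membrane. The alpha chain gene c8a had 222, 153 and 152 CPM in nAtf6 TG livers, against 351, 378 and 378 CPM in siblings. The beta chain gene c8b had 149, 148 and 142 CPM in nAtf6 TG livers, against 225, 356 and 238 CPM in siblings. For both genes every nAtf6 TG library was below every sibling library, with library 1 the highest nAtf6 TG value of c8a and sibling 2 the highest value of c8b.

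The transcript of c8a was 2.1-fold lower in nAtf6 TG livers (log2 fold change -1.07, SE 0.21, adjusted p 0.0129 by edgeR). That of c8b was 1.87-fold lower (log2 fold change -0.90, SE 0.22, adjusted p 0.0284 by edgeR). The genes of the alpha and beta chains also stand next to each other in the RefSeq gene order.

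C9 polymerises to form the wall of the pore. Its gene had 623, 622 and 613 CPM in nAtf6 TG livers, against 1424, 1003 and 1465 CPM in siblings. The nAtf6 TG libraries were nearly alike, 619 ± 5.12 CPM against 1298 ± 256 CPM in siblings (SD, n = 3 each), and the lowest sibling, library 2, was still well above them. The transcript was 2.1-fold lower (log2 fold change -1.07, SE 0.22, adjusted p 0.0144 by edgeR).

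**Figure D1:**
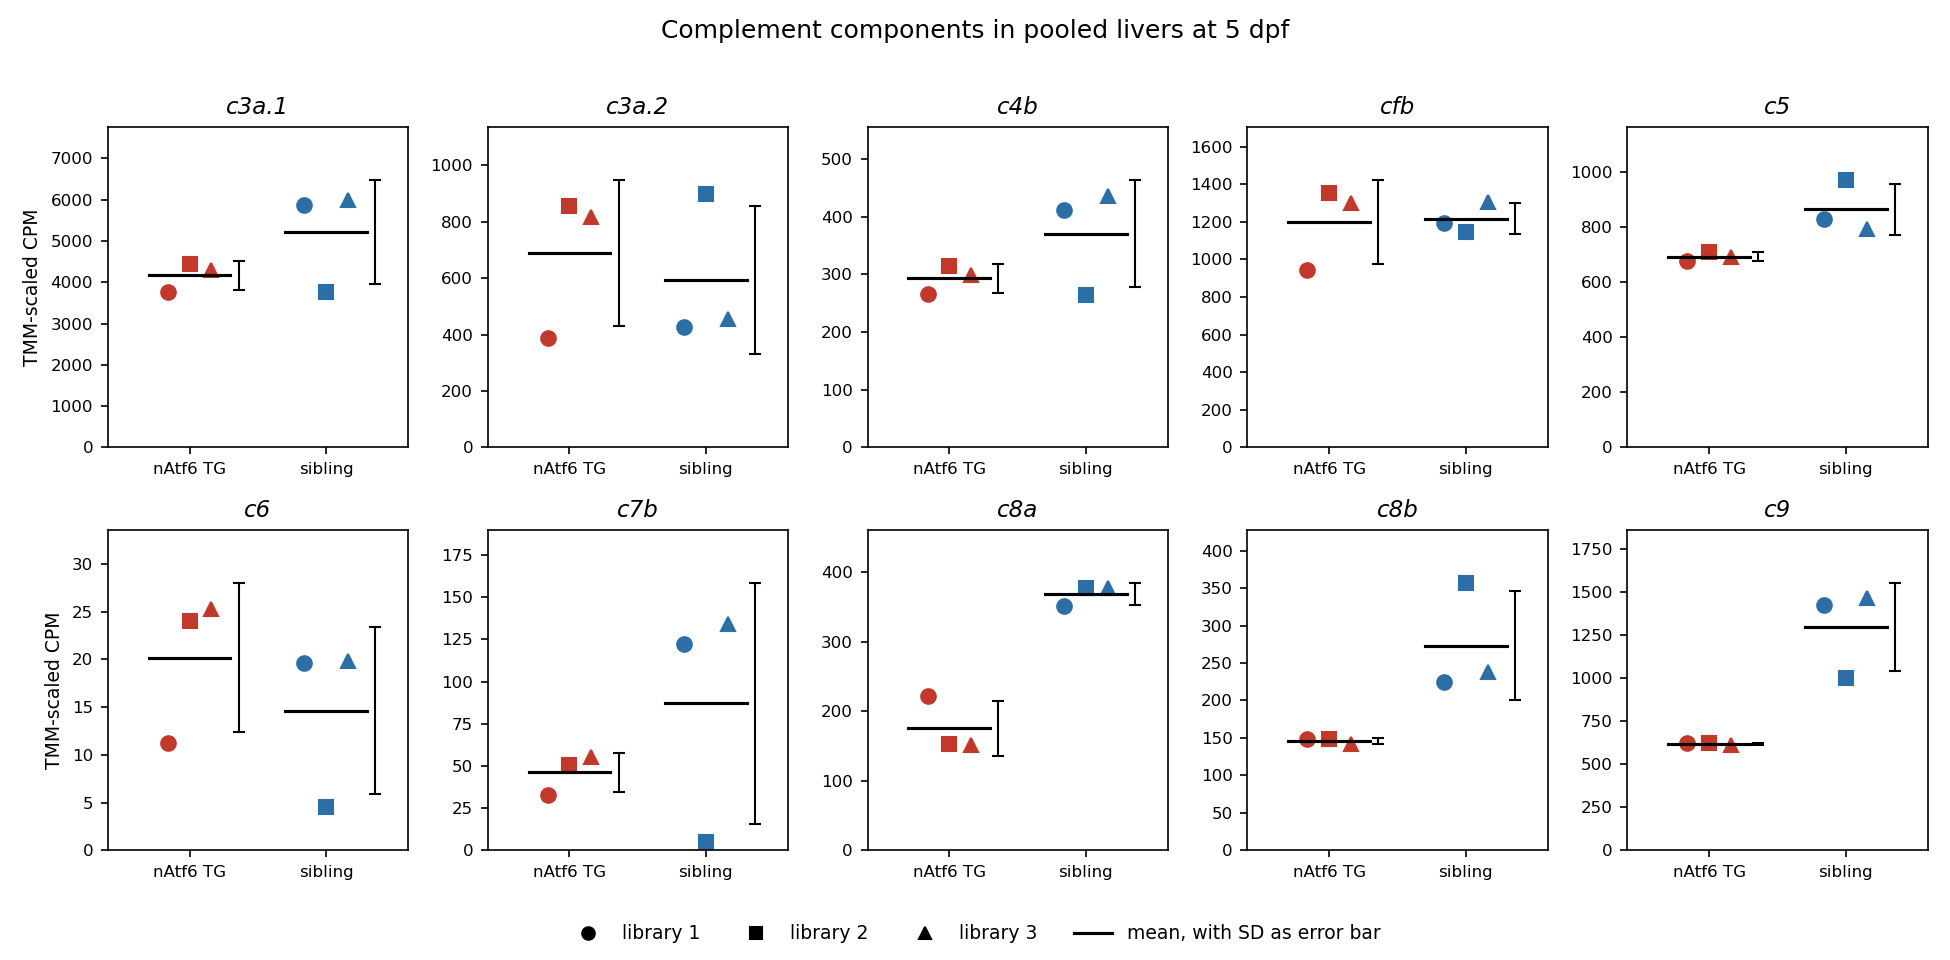
TMM-scaled CPM of each of the 10 components in the 6 libraries of 5 dpf, nAtf6 TG at the left and sibling at the right of each panel, with marker shapes for the library number and a bar and error bar for the mean and SD. The groups do not overlap for c5, c8a, c8b and c9, and sibling library 2 falls to 5.15 CPM for c7b, far from siblings 1 and 3.

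The groups were also apart for c8a, c8b and c9 without TMM scaling, and so were those of c5, which was not called. In CPM computed from the total count on genes alone, c8b had 152, 153 and 144 in nAtf6 TG livers, against 250, 270 and 263 in siblings, and sibling 2 no longer stood out. On that scale c8a had 225, 158 and 155 in nAtf6 TG livers, against 390, 287 and 417 in siblings. For c9 the values were 633, 644 and 625 in nAtf6 TG livers, against 1583, 761 and 1620 in siblings, and the groups of none of these 3 genes overlapped. For c5 they were 688, 732 and 703 in nAtf6 TG livers, against 922, 735 and 876 in siblings, narrowly apart. The share of all genes apart on this scale was not counted, and with TMM scaling it was 39.8%.

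Single libraries decided several calls. Without sibling 2 the test called 6 components lower, adding c3a.1 (log2 fold change -0.49, adjusted p 0.0258), c4b (-0.51, adjusted p 0.0201) and c7b (-1.45, adjusted p 0.0048) to c8a, c8b and c9. In that fit 18.5% of all genes tested were called lower, so the count over all genes grew as well. Without sibling 1 c8a and c8b were called, and without nAtf6 TG library 1 c8a and c9 were called, against 2.46% and 11.2% of all genes called lower in those fits. Without sibling 3, nAtf6 TG library 2 or nAtf6 TG library 3 none of the 10 was called at an adjusted p by edgeR. In these fits 2.46%, 1.16% and 1.34% of all genes were called lower. c8a, c8b and c9 kept an unadjusted p under 0.05 by edgeR in each case. So did 5279 of 18643, 4906 of 20077 and 4779 of 19882 genes tested, in the same order of fits.

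Over these 6 fits the log2 fold change stayed between -1.25 and -0.95 for c8a, between -1.03 and -0.64 for c8b and between -1.20 and -0.98 for c9. The highest adjusted p was 0.0975 for c8a, 0.152 for c8b and 0.100 for c9. With nAtf6 TG libraries 2 and 3 summed into 1 library, a choice made after seeing how alike they were, none of the 10 was called at an adjusted p. In that fit 3 of the 10 had an unadjusted p under 0.05 by edgeR, as did 5021 of all 20051 genes tested. DESeq2 on all 6 libraries called c8a, c8b and c9, and called 2102 of all 18470 genes tested lower. One edgeR model of all 10 libraries called none of the 10, and called 842 of all 20595 genes tested lower at 5 dpf. Its log2 fold changes at 5 dpf were -1.05 for c8a (adjusted p 0.0524), -0.89 for c8b (adjusted p 0.113) and -1.04 for c9 (adjusted p 0.148).

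**Figure D2:**
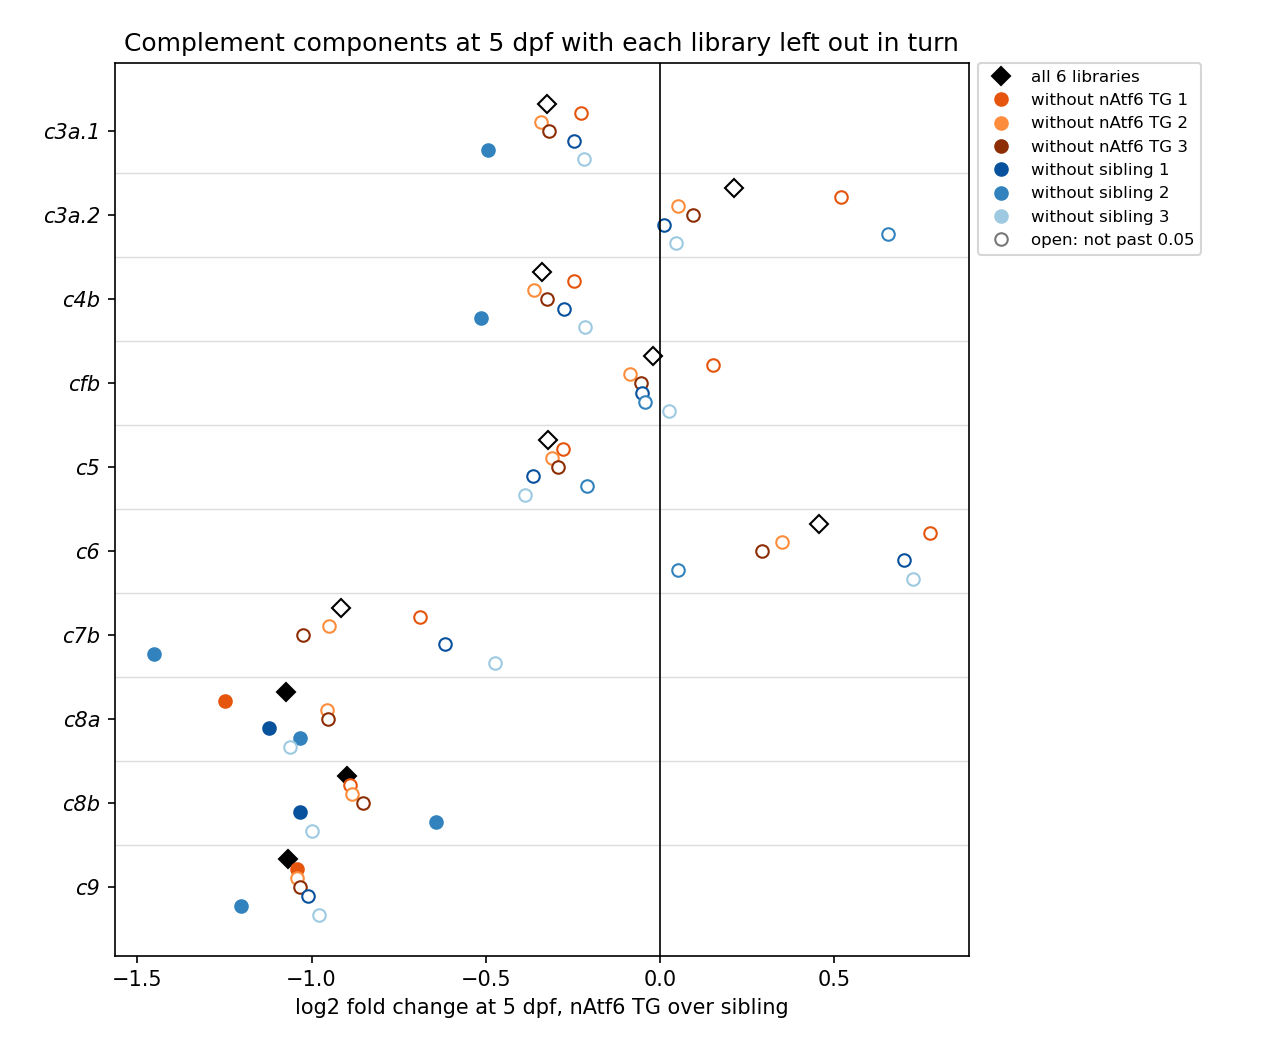
Log2 fold change at 5 dpf, nAtf6 TG over sibling, of each component with all 6 libraries (diamond) and with each library left out (circles), filled where the adjusted p was under 0.05 and open where it was not. c8a, c8b and c9 stay between -1.25 and -0.64 in every fit, and c3a.1, c4b and c7b are filled only without sibling 2.

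Sibling 2 also differed in markers of other tissue. The summed level of 11 exocrine pancreas marker genes was 1903, 1080 and 1090 CPM in nAtf6 TG livers, against 4358, 1957 and 4820 CPM in siblings, and 5 of the 11 were called lower at 5 dpf. The summed level of 15 hepatocyte marker genes was 110567, 90068 and 94793 CPM in nAtf6 TG livers, against 134164, 231289 and 147330 CPM in siblings. Of these 15, 4 were called lower and none higher, with a median log2 fold change of -0.79, 14 of them negative. Over all genes tested 7.48% were called lower. Sibling 2 was thus the lowest sibling for pancreas markers and the highest for hepatocyte markers. Their part in the complement values was not tested.

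Because all components are read from the same library, their proportions to each other do not depend on how libraries are scaled. Counts per 100 counts of c3a.1 were compared after the values above were seen, so they are given with no test. The proportion of c4b was nearly constant, at 7.07, 7.09 and 6.95 in nAtf6 TG livers, against 7.01, 7.04 and 7.26 in siblings, including sibling 2. The proportion of c9 was 16.6, 14.0 and 14.3 in nAtf6 TG livers, against 24.3, 26.7 and 24.4 in siblings. c9 was thus low relative to c3a.1 in each nAtf6 TG library.

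The C8 genes were less clear on this measure. The proportion of c8a was 5.89, 3.45 and 3.53 in nAtf6 TG livers, against 5.98, 10.1 and 6.29 in siblings, where nAtf6 TG library 1 almost reached sibling 1. That of c8b was 3.97, 3.34 and 3.30 in nAtf6 TG livers, against 3.83, 9.50 and 3.96 in siblings, and the groups overlapped. For cfb it was 25.1, 30.5 and 30.3 in nAtf6 TG livers, against 20.3, 30.6 and 21.8 in siblings. Sibling 2 lay above siblings 1 and 3 for all of these genes except c4b, where all libraries lay together. For c7b and c6 sibling 2 was instead the lowest library. The proportion of c7b was 0.878, 1.14 and 1.28 in nAtf6 TG livers, against 2.08, 0.137 and 2.23 in siblings. That of c6 was 0.297, 0.541 and 0.589 in nAtf6 TG livers, against 0.333, 0.120 and 0.330 in siblings.

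**Figure D3:**
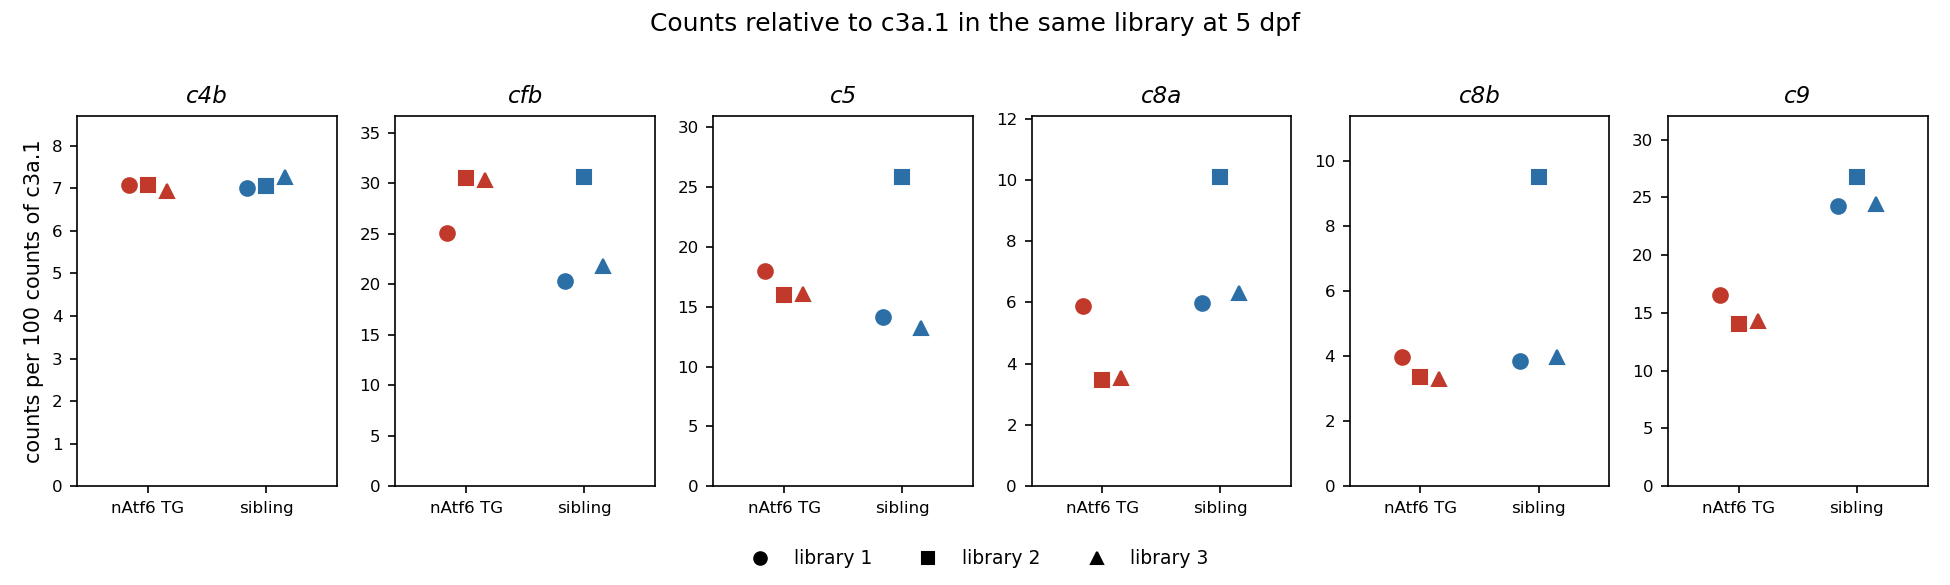
Counts of 6 components per 100 counts of c3a.1 in the same library at 5 dpf, nAtf6 TG at the left and sibling at the right of each panel, with marker shapes for the library number. c4b stays between 6.95 and 7.26 in all 6 libraries, and c9 lies at 16.6 or below in every nAtf6 TG library, against 24.3 or above in every sibling library.

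Other genes of the pathway were taken from lists by role, 33 identifiers in all, of which 27 were tested at 5 dpf. In nAtf6 TG livers 9 of these were called lower and 1 higher, against 7.48% and 13.7% of all 18470 genes tested. Their median log2 fold change was -0.48, and that of all genes tested was -0.04. Called genes stood among proteases of initiation, C3 and C4 paralogs, the third C8 chain, factor H-like regulators and the C1 inhibitor. Without sibling 2, 13 of 30 tested were called lower and 1 higher, in the fit where 18.5% of all genes were called lower. Of the 10 calls, masp2, cfhl3, cfhl4, cfhl5 and serping1 passed with each library left out, while c3b.2, c4, c8g, cfhl1 and c5ar1 did not, with highest adjusted p of 0.187, 0.0679, 0.0728, 0.138 and 0.100.

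Among genes of initiation 1 of 7 tested was called, against 21.2% of all genes tested. masp2, whose protease cleaves C4 and C2 on the lectin route, had 42.9, 41.1 and 41.6 CPM in nAtf6 TG livers, against 109, 139 and 111 CPM in siblings. It was 2.86-fold lower (log2 fold change -1.52, SE 0.17, adjusted p 0.00143 by edgeR), with no overlap of the groups. The related protease gene masp1 and the collectin genes colec10 and colec11, whose products recognise sugars, had log2 fold changes of -0.48, 0.23 and 0.04, none past the test. The C1q genes c1qa, c1qb and c1qc, which in mammals are made mainly by macrophages, reached at most 0.812 CPM at 5 dpf and were too low to test.

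Of the other C3 copies c3b.2 was the one called. It had 497, 359 and 342 CPM in nAtf6 TG livers, against 672, 937 and 660 CPM in siblings (log2 fold change -0.92, adjusted p 0.0358 by edgeR), and its neighbour c3b.1 had a log2 fold change of -0.76 that missed the threshold (adjusted p 0.0743). The copies c3a.3, c3a.5 and c3a.6 had log2 fold changes of 0.07, 0.17 and -0.01, and c3a.4 had one of 1.18 (adjusted p 0.0891). Whether the copies differ in their change was not tested. The second C4 gene, c4, was called lower with 9.00, 5.64 and 4.87 CPM in nAtf6 TG livers, against 14.2, 16.9 and 16.3 CPM in siblings (log2 fold change -1.28, adjusted p 0.0118 by edgeR). The copies of C3, of C4 and of the factor H-like genes are related genes, several of them side by side, so the counting may have split or dropped reads that fit more than 1 copy, and their separate values are uncertain to that extent.

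The gene of the third C8 chain, c8g, had 135, 95.7 and 90.6 CPM in nAtf6 TG livers, against 220, 276 and 246 CPM in siblings. It was 2.31-fold lower (log2 fold change -1.21, SE 0.22, adjusted p 0.00923 by edgeR), so that the genes of all C8 chains were called lower in the fit of all 6 libraries. Like c8a, it was highest in nAtf6 TG library 1 within its group. c7a, a second C7 gene, had between 1.81 and 5.70 CPM in nAtf6 TG livers and between 1.83 and 4.38 CPM in siblings and was not called (log2 fold change 0.26, adjusted p 0.721).

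Of 9 regulators tested 5 were called lower and none higher, against 7.48% and 13.7% of all genes tested. Factor H restrains the alternative route, and its gene cfh had a log2 fold change of -0.43 (adjusted p 0.369 by edgeR). Of the neighbouring factor H-like genes, cfhl4 had 765, 667 and 625 CPM in nAtf6 TG livers, against 1751, 1968 and 1961 CPM in siblings (log2 fold change -1.47, adjusted p 0.00291). The largest change among the complement genes tested was that of cfhl5, with 0.852, 1.1 and 1.15 CPM in nAtf6 TG livers, against 26.4, 10.2 and 31.0 CPM in siblings.

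The fold change of cfhl5 was 21.6-fold lower (log2 fold change -4.44, SE 0.46, adjusted p 0.000993 by edgeR). cfhl3 was 8.58-fold lower (log2 fold change -3.10, adjusted p 0.00115) and cfhl1 was 2.11-fold lower (log2 fold change -1.08, adjusted p 0.0284), while cfhl2 had a log2 fold change of -0.16 (adjusted p 0.806). serping1 encodes the C1 inhibitor, which blocks the proteases of the classical and lectin routes. It had 17.1, 25.0 and 26.3 CPM in nAtf6 TG livers, against 66.6, 83.4 and 66.5 CPM in siblings, and was 3.17-fold lower (log2 fold change -1.66, adjusted p 0.00268 by edgeR).

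The only complement gene called higher in edgeR's fit of all 6 libraries was c5ar1, the receptor of C5a on myeloid cells. It had 10, 58 and 77 counts in nAtf6 TG livers, against 5, 4 and 9 counts in siblings (log2 fold change 3.01, SE 0.71, adjusted p 0.0249 by edgeR), so that library 1 was only just above the siblings. With sibling counts this low it passed the filter on low counts only through the nAtf6 TG libraries, and with at least 10 counts asked of every library it was not tested. Its call held without sibling 2 and without nAtf6 TG library 1, and was lost without any 1 of the other 4 libraries. Of 10 macrophage and leukocyte marker genes tested, none of them at 0 in any 5 dpf library, 4 were also called higher and 2 lower. Over all genes tested 13.7% were called higher and 7.48% lower. lyz, called lower, had 8, 4 and 3 counts in nAtf6 TG livers against 19, 18 and 16 in siblings, and passed the filter only through the siblings. marco and ptprc, called higher, had 8 counts each in sibling 2. With at least 10 counts asked of every library, lyz, marco and ptprc were not tested either. The summed level of all 13 identifiers of the list was 15.1, 57.0 and 54.7 CPM in nAtf6 TG livers, against 32.7, 10.6 and 37.7 CPM in siblings. One mfap4 identifier, ENSDARG00000090557, held much of the sibling sums, and without it, a choice made after seeing the data, the sums were 13.3, 55.2 and 52.5 CPM in nAtf6 TG livers, against 11.9, 6.21 and 11.7 CPM in siblings. In both sums nAtf6 TG library 1 was below libraries 2 and 3. The share of leukocyte RNA in the value of c5ar1 was not tested.

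**Figure D4:**
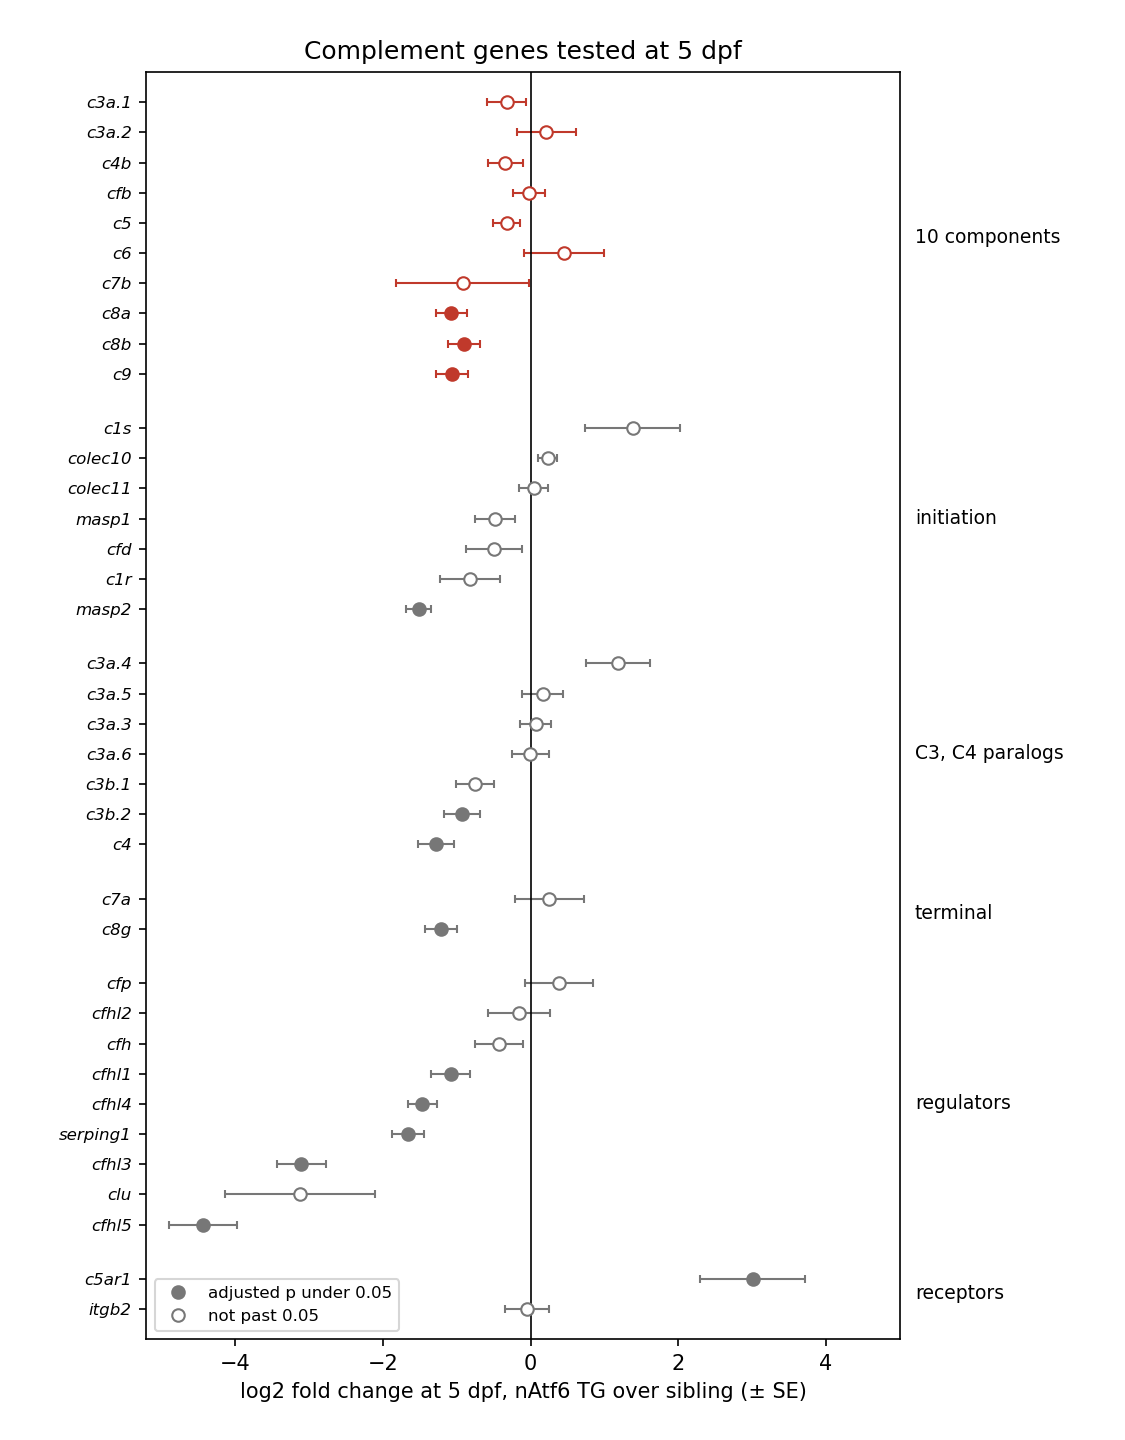
Log2 fold change at 5 dpf, nAtf6 TG over sibling, with its SE, of the 10 components (red) and the 27 other complement genes tested (grey), grouped by role, filled where the adjusted p was under 0.05. Filled points lie to the left of 0 except c5ar1, from c3b.2 and c8b near -0.9 to cfhl5 at -4.44.

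Transcription factors and signalling genes known in mammals to set complement transcription were read from the same fit. Of 14 tested, 4 were called higher and 1 lower, against 13.7% and 7.48% of all genes tested. Their median log2 fold change was 0.61, and that of all genes tested was -0.04. stat3, which carries the IL-6 signal to the nucleus, had 37.9, 91.7 and 87.8 CPM in nAtf6 TG livers, against 27.3, 22.9 and 27.2 CPM in siblings (log2 fold change 1.49, adjusted p 0.0205 by edgeR). The liver-enriched factors cebpa and cebpb had log2 fold changes of 1.09 (adjusted p 0.0189) and 0.86 (adjusted p 0.0227), and rela, an NF-kB subunit, one of 0.69 (adjusted p 0.036). These 4 calls held without sibling 2 and without nAtf6 TG library 1 and were lost without any 1 of the other libraries, with highest adjusted p of 0.0841 for stat3, 0.0850 for cebpa, 0.114 for cebpb and 0.150 for rela.

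The gene of the IL-6 receptor, il6r, was the one called lower, with 20.0, 11.7 and 12.0 CPM in nAtf6 TG livers, against 47.0, 58.8 and 47.1 CPM in siblings (log2 fold change -1.81, adjusted p 0.00333 by edgeR). Its partner il6st, at 77.4, 213 and 216 CPM in nAtf6 TG livers, against 77.0, 71.9 and 69.2 CPM in siblings, just missed the threshold (log2 fold change 1.22, adjusted p 0.0563). For stat3 and il6st nAtf6 TG library 1 lay nearer the siblings than libraries 2 and 3 did. The hepatocyte factors hnf4a (-0.40), nr1h4 (-0.22), creb3l3a (-0.19) and creb3l3b (0.08) were not called, nor were cebpd (-0.08), nfkbiaa (1.08, adjusted p 0.0643) and xbp1 (0.93, adjusted p 0.0957), each given as its log2 fold change.

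At 78 hpf the components were all detected, and no difference between the libraries deposited as Natf6 and those deposited as SIBS was larger than the spread between clutches. None of the 10 was called, and none of 14555 genes tested was (0%) by edgeR, while 869 genes had an unadjusted p under 0.05, none of them one of the 10, and DESeq2 called 188 genes, again none of the 10. Log2 fold changes of the components ran from -0.46 to 0.09 with SEs from 0.42 to 0.70, wide beside the changes seen at 5 dpf, with 2 libraries a group. The libraries deposited as SIBS differed most from each other, except for c6 and c7b, where those deposited as Natf6 differed more.

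The C3 gene c3a.1 had 1224 and 1409 CPM in the libraries deposited as Natf6, against 1764 and 783 CPM in those deposited as SIBS. For c3a.2 it was 850 and 614 CPM deposited as Natf6, against 1118 and 365 CPM deposited as SIBS. In both genes clutch 1 deposited as SIBS was the highest library and clutch 2 deposited as SIBS the lowest. That order held widely, since clutch 1 deposited as SIBS was highest for 9 of the 10 components and clutch 2 lowest for 8.

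The convertase genes behaved alike. c4b had 132 and 202 CPM deposited as Natf6, against 274 and 107 CPM deposited as SIBS. cfb had 492 and 583 CPM deposited as Natf6, against 744 and 350 CPM deposited as SIBS. In each the Natf6 pair lay between the SIBS clutches.

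Among terminal components c5 had 193 and 175 CPM deposited as Natf6, against 296 and 75.0 CPM deposited as SIBS. c6 had 16.7 and 8.21 CPM deposited as Natf6, against 20.6 and 13.7 CPM deposited as SIBS. c7b was close to the limit of detection, with 1.53 and 3.85 CPM deposited as Natf6, against 3.50 and 2.32 CPM deposited as SIBS. For c6 and c7b clutch 2 deposited as SIBS was not the lowest library.

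The components c8a, c8b and c9, called lower at 5 dpf, did not separate the pairs at 78 hpf. c8a had 213 and 227 CPM deposited as Natf6, against 286 and 128 CPM deposited as SIBS (log2 fold change 0.09, SE 0.44, adjusted p 0.967 by edgeR). c8b had 127 and 135 CPM deposited as Natf6, against 199 and 81.5 CPM deposited as SIBS (log2 fold change -0.10, SE 0.47, adjusted p 0.965). c9 had 576 and 780 CPM deposited as Natf6, against 1204 and 293 CPM deposited as SIBS, a 4.11-fold gap between the SIBS clutches (log2 fold change -0.14, SE 0.70, adjusted p 0.967). None of 22 other complement genes tested at 78 hpf was called. By the deposited names 17 of them had a negative log2 fold change and 5 a positive one, with a median of -0.43. The median of all genes tested at 78 hpf was -0.02. The summed level of all 33 other complement identifiers overlapped, at 2578 and 2894 CPM deposited as Natf6, against 4559 and 1912 CPM deposited as SIBS.

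**Figure D5:**
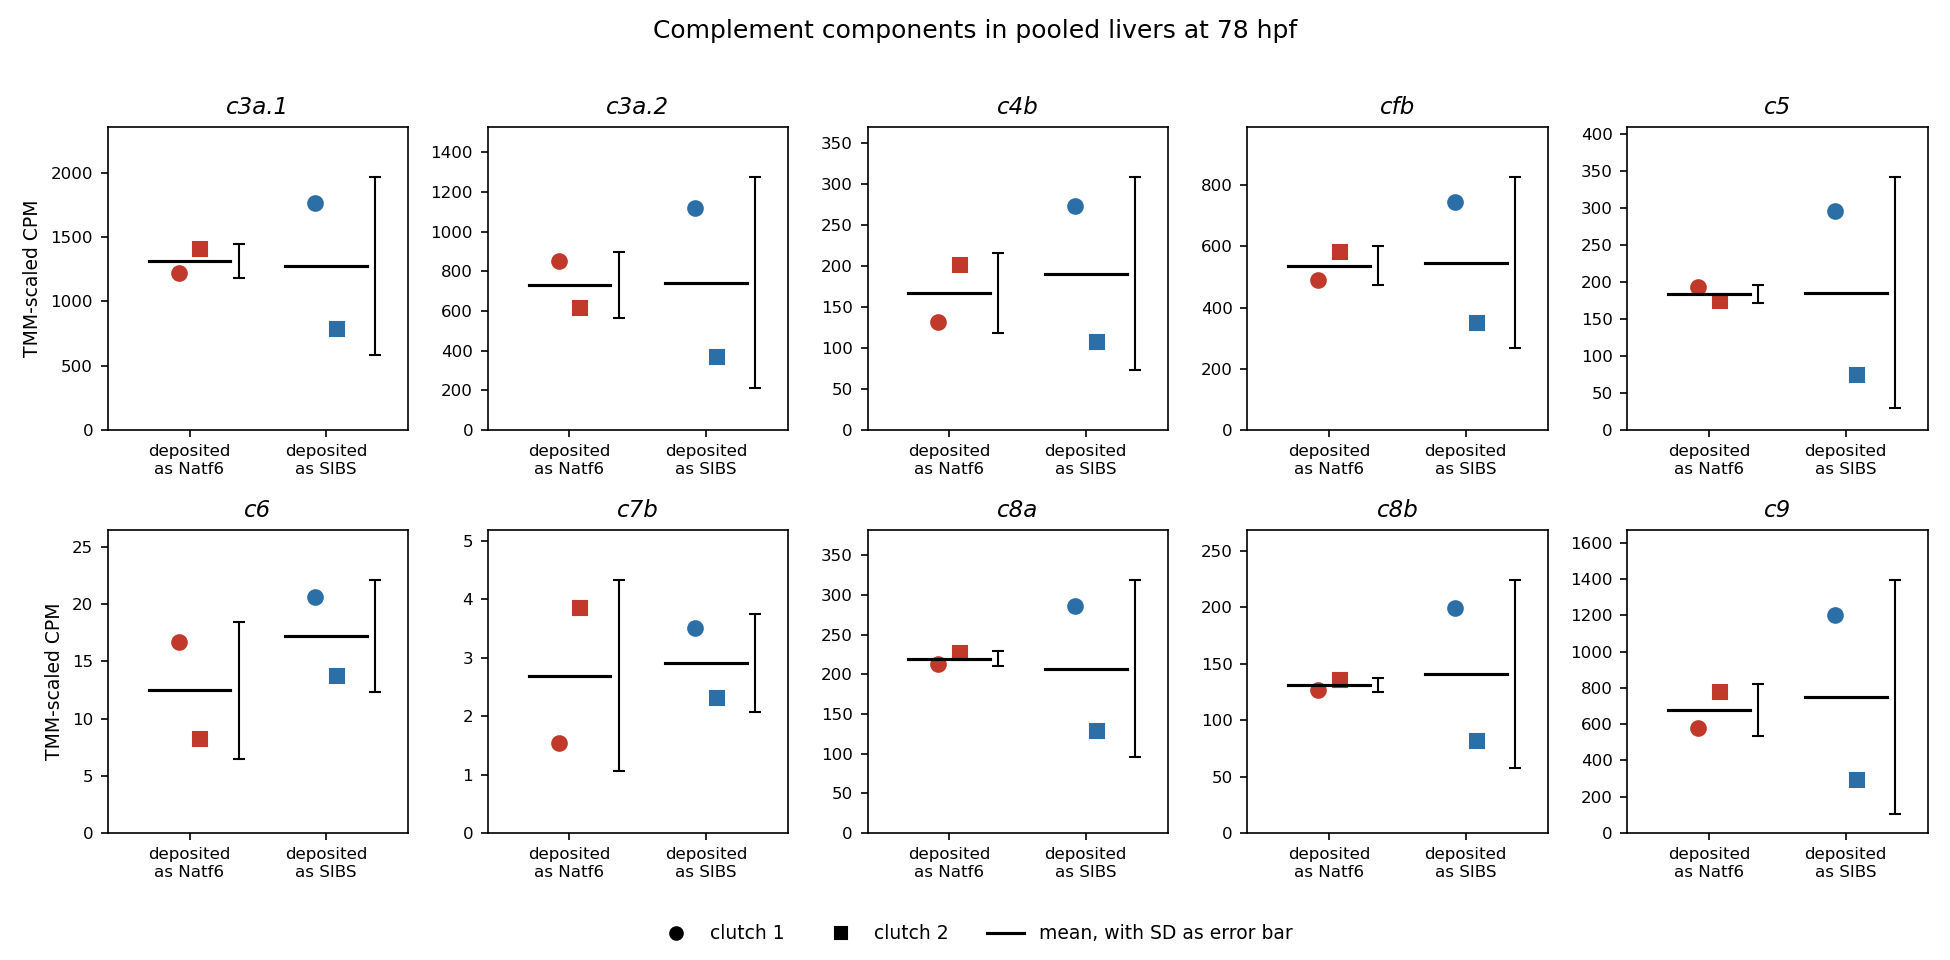
TMM-scaled CPM of each component in the 4 libraries of 78 hpf, deposited as Natf6 at the left and deposited as SIBS at the right of each panel, with marker shapes for the clutch and a bar and error bar for the mean and SD. The groups overlap for all 10 components, and clutch 1 deposited as SIBS is the highest library for 9 of them.

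Markers of other tissue and of hepatocytes moved between these libraries too. Summed erythrocyte markers were 86.7 and 202 CPM deposited as Natf6, against 77.4 and 936 CPM deposited as SIBS. Summed endothelial markers were 412 and 366 CPM deposited as Natf6, against 536 and 634 CPM deposited as SIBS. Clutch 2 deposited as SIBS also had the fewest counts on genes (4868321) and the largest share in entries that name no gene (47.4%). The summed level of the exocrine pancreas marker genes was 227 and 7342 CPM deposited as Natf6, against 74.3 and 30.1 CPM deposited as SIBS, so that clutch 2 deposited as Natf6 carried far more of it than the others. The summed hepatocyte markers were 56973 and 59590 CPM deposited as Natf6, against 105999 and 37184 CPM deposited as SIBS. As for most of the components, clutch 1 deposited as SIBS was highest and clutch 2 lowest in these hepatocyte sums. The part of the hepatocyte share, of other tissue and of depth in the complement values was not tested.

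The difference of the contrast between ages was tested in one model of all 10 libraries. None of the 10 components was called by edgeR, against 0.068% of 20595 genes tested (14 genes, with 2726 at an unadjusted p under 0.05), and DESeq2 called none of the 10 either. The largest difference, 78 hpf contrast minus 5 dpf contrast, was that of c8a, 1.27 on the log2 scale (SE 0.50, adjusted p 0.314 by edgeR), the only component with an unadjusted p under 0.05. For c9 it was 1.03 (SE 0.70, adjusted p 0.559) and for c8b 0.92 (SE 0.54, adjusted p 0.492). A fall particular to 5 dpf was therefore not shown, and the titles of the 78 hpf libraries would give other values for these differences.

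Levels at the 2 ages were scaled separately and the libraries prepared differently, so they are set side by side with no test. The 10 components took 0.720%, 0.897% and 0.855% of all counts on genes in nAtf6 TG livers at 5 dpf, against 1.21%, 0.666% and 1.24% in siblings. At 78 hpf they took 0.393% and 0.400% in the libraries deposited as Natf6, against 0.559% and 0.234% in those deposited as SIBS. Within each age the groups overlapped on this share, and sibling 2 was the lowest library at 5 dpf. This depends on the scale. The summed TMM-scaled level at 5 dpf was 7073, 8662 and 8395 CPM in nAtf6 TG livers, against 10876, 8779 and 11232 CPM in siblings. On that scale sibling 2 lay just above every nAtf6 TG library. Both measures rest largely on c3a.1, which held from 42.7% to 54.0% of the component counts at 5 dpf. By the ratio of the highest to the lowest library of an age, c7b spread most at 5 dpf (26.0) and c9 at 78 hpf (4.11).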

How the data were processed

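Counts came from 10 libraries of pooled larval livers. The authors deposited unnormalized read counts per Ensembl gene, and their processing notes name TopHat2 2.1.0 (5 dpf), HTSeq and build GRCz10; the aligner used at 78 hpf and the annotation release are not given in the sources used here. The htseq-count entries that name no gene (35.3% to 47.4% of a 78 hpf library) were left out. Symbols were found for 26269 of 32105 identifiers, with RefSeq synonyms for the rest of a list's names.

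Counts were tested with edgeR 4.0.16 (R 4.3.3; filterByExpr, TMM, quasi-likelihood test) within each age, and the difference between ages with all 10 libraries in one model. p-values were adjusted over all genes tested by the Benjamini-Hochberg method and called under 0.05. The SE of a log2 fold change was derived from edgeR's test, as its absolute value divided by the square root of the F statistic. Alternatives were DESeq2 1.42.0, other scaling and filters (a minimum of 10 counts), a replicate block, one model for both ages and leaving out each library. Libraries of a group came from separate clutches by the protocols, but titles tie libraries to a clutch only at 78 hpf. There the clutch numbers pair the libraries, with a correlation of -0.16 between same-numbered libraries after subtracting group means. With 2 libraries a group the crossed pairs must give the same value with the opposite sign (0.16). This correlation therefore cannot decide whether same-numbered libraries are alike.

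The components and lists were chosen with earlier results of these data known. All 10 components were named; of the other complement genes those called at 5 dpf, and of the regulators of transcription every gene tested except 1 that is not reported here. Further genes were named after their values were seen. Groups of 78 hpf follow the deposited names. No promoter or protein sequence was used here, so a planned motif search was not run, and no coordinates are given.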

Additional observations from a re-analysis of the deposited data

How the results depend on the processing

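At 5 dpf, leaving out 1 library gave between 0 and 6 components called, between 5 and 14 other complement genes and between 1361 and 7598 genes in all, against 3, 10 and 3913 with all 6 libraries. One model of all 10 libraries called 0 components and 3000 genes. Summing nAtf6 TG libraries 2 and 3, chosen after seeing the data, called 0 components, 5 other complement genes and 1417 genes. Without a filter the median log2 fold change of all genes was -0.20, cfb was at 0.062 and c8b missed the threshold (adjusted p 0.0516). The replicate block at 5 dpf called 2 components (c8a and c9) and 3128 genes. Same-numbered libraries had correlations of 0.080, 0.054 and -0.067 after subtracting group means. nAtf6 TG libraries 1 and 2 were nearest to the sibling of their own number, and library 3 to sibling 2 (0.084). With 3 libraries a group these correlations cannot decide whether same-numbered libraries share a clutch. At 78 hpf 188 genes were called by DESeq2, 8 without a filter, 1 after a filter of 10 counts a library and 117 in one model of all 10 libraries, against 0. For the difference between ages 572 genes were called by DESeq2, 134 without a filter, 77 with at least 10 counts, 0 with the replicate block and 0 to 506 without 1 library, against 14. None of the 10 components was called at 78 hpf or for the difference between ages under any alternative run. With the 78 hpf replicate block, paired by clutch, signs turned for c3a.2 (0.18), c5 (0.30), c8b (0.036), c9 (0.17) and cfb (0.068), and in one model of all 10 libraries for c3a.2 (0.097), c5 (0.11), c7b (0.023), c8b (0.031) and cfb (0.11). The crossed clutch numbers, added after seeing the data, called 0 genes and gave 0.18, 0.30, 0.036, 0.17 and 0.068 for the same 5 genes. With 2 libraries a group, a block gives nearly the same log2 fold change for either pairing, so this fit cannot decide between them. The difference of c3a.2 between ages was 0.093 with the block. Leaving out 1 library moved the log2 fold change of cfb at 5 dpf between -0.086 and 0.15. At 78 hpf it moved c3a.1 between -0.42 and 0.82, c3a.2 between -0.61 and 1.07, c4b between -0.72 and 0.71, c5 between -0.69 and 1.36, c7b between -0.90 and 0.41, c8a between -0.38 and 0.85, c8b between -0.61 and 0.75, c9 between -0.83 and 1.28 and cfb between -0.47 and 0.69. For the difference between ages it moved c3a.1 between -0.028 and 1.24, c3a.2 between -0.73 and 0.97, c4b between -0.30 and 1.15, c5 between -0.29 and 1.79, c7b between -0.00080 and 1.46 and cfb between -0.37 and 0.81. The cause was not tested. Of 45 single-gene results 14 kept direction and side of the threshold under every alternative run. A group reduced to 1 library is assumed to vary like the other.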

Other observations

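Paralogs outside the lists were read after the values above were seen. bfb, a factor B gene next to cfb in the RefSeq gene order, had 44.9, 24.2 and 21.2 CPM in nAtf6 TG livers at 5 dpf, against 61.3, 73.5 and 66.6 CPM in siblings (log2 fold change -1.16, SE 0.30, adjusted p 0.0322 by edgeR). cfb beside it had a log2 fold change of -0.02, and whether the 2 genes differ in their change was not tested. c6.1, a paralog of the c6 gene described above, had between 1.23 and 1.67 CPM in nAtf6 TG livers and between 0.473 and 1.67 CPM in siblings and was not called (log2 fold change 0.20, adjusted p 0.779 by edgeR).

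The mean log2 level of the 10 components was 8.07, 8.41 and 8.39 in nAtf6 TG livers at 5 dpf, against 8.79, 8.17 and 8.85 in siblings. Outside the lists, 6866 genes at 10 CPM or more on average were ranked by likeness to this mean over the 6 libraries. The most alike were TTYH3 (Pearson's r 0.993), CD81 (0.979), HSPG2 (0.974), SLC30A1 (0.974) and ecm1b (0.967). They are given as a description because the 6 points share their libraries and depth. Each component weighs equally in the mean. In sibling 2 c7b was 24.9 times and c6 4.38 times below the mean of siblings 1 and 3. The low mean of sibling 2 rests largely on these genes, so the ranking leans on that 1 library. The components themselves followed the mean unequally, although each is part of it. Their r was 0.992 for c3a.1, 0.988 for c4b, 0.799 for c7b, 0.748 for c9, 0.597 for cfb and 0.577 for c6. It was only 0.373 for c8a, 0.153 for c8b, 0.137 for c5 and -0.340 for c3a.2, so likeness to the mean is not likeness to each component.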
